A study of Mus musculus with 14 samples.

Results

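Type 1 conventional dendritic cells (cDC1) were examined among cells sorted from mouse melanomas. Those chosen had RNA markers of the lineage and few or no RNA signs of maturation, division or an interferon response. A cell was a member when it had at least 1 unique molecular identifier (UMI, 1 tagged transcript molecule) in 5 or more of the 9 genes Xcr1, Clec9a, Cadm1, Naaa, Tlr3, Irf8, Itgae, Ppt1 and Wdfy4, and none of Ccr7. It also had to have UMIs in fewer than 4 of 10 cell cycle genes (Mki67, Top2a, Birc5, Ube2c, Cdk1, Pclaf, Stmn1, Rrm2, Mcm2 and Mcm5) and in fewer than 5 of 8 interferon-induced genes (Isg15, Ifit1, Ifit2, Ifit3, Rsad2, Oasl1, Usp18 and Cmpk2). The rule selected 141 of 555 cells, called immature cDC1 below. Since these values chose the cells, every RNA difference between them and other cells is given as a description without a test.

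The cells came from tumours of YUMM1.7, a mouse melanoma line injected under the skin, and were labelled as cDC1 at the sort. Each of the 14 plates held the cells of 1 tumour of 1 female mouse, so the plate was the replicate. The genotypes were Irf1_FF (4 plates, 165 cells, 37 of them immature cDC1), Irf1_dXCR1 (5 plates, 223 cells, 53 immature), Ikbkb_FF (1 plate, 34 cells, 17 immature) and Ikbkb_dXCR1 (4 plates, 133 cells, 34 immature). The FF groups are the study's controls. Neither the allele that drives deletion in the dXCR1 groups nor its presence in the controls is named in the sources used here. Age was 6 weeks in both Irf1 groups. The Ikbkb_FF mouse and Ikbkb_dXCR1 mice 1 and 2 were 8 weeks old, and Ikbkb_dXCR1 mice 3 and 4 were 6 weeks old. Both Irf1 groups carry the experiment label M3 and both Ikbkb groups M2. Any comparison of Irf1 groups with Ikbkb groups, or of their genotype effects, therefore also crosses this label. P-values below measure the spread between plates.

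cDC1 are the dendritic cells specialised in taking up dead cell material and presenting its antigens on MHC class I to CD8 T cells, a process called cross-presentation. Irf8 and Batf3 control their development, and the chemokine receptor Xcr1 and the dead-cell receptor Clec9a mark them. On maturation they switch on Ccr7, which guides them to lymph nodes, together with cytokines and costimulatory molecules, and lose much of their uptake machinery. Irf1 encodes a transcription factor of the interferon-gamma response, and Ikbkb encodes a kinase that activates NF-kB.

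Immature cDC1 were found in every plate. Their share of the sorted cells was 32.6%, 10.0%, 16.1% and 27.5% in Irf1_FF plates 1 to 4, and 20.3%, 18.9%, 24.1%, 30.6% and 24.5% in Irf1_dXCR1 plates 1 to 5. In the Ikbkb_dXCR1 plates 27.8%, 61.5%, 21.1% and 9.80% of cells were immature, and in the single Ikbkb_FF plate 50% were, with an exact binomial 95% interval of 32.4% to 67.6% that covers counting error only. The shares of both Irf1 groups overlapped: the mean was 21.5% ± 10.3 (SD, n = 4) in Irf1_FF and 23.7% ± 4.55 (SD, n = 5) in Irf1_dXCR1. The difference of 2.17 percentage points did not pass a two-sided exact permutation test (p = 0.690, smallest possible 0.00794), and leaving out Irf1_FF plate 2 turned it to -1.68. The single Ikbkb_FF plate lay within the range of the Ikbkb_dXCR1 plates, and 1 plate against 4 cannot reach the threshold of 0.05. That range spans both ages. At 8 weeks, the age of the Ikbkb_FF mouse, the Ikbkb_dXCR1 shares were 27.8% and 61.5%, and at 6 weeks 21.1% and 9.80%. The part of age was not tested. Because cells were gated before sorting, these are shares of sorted cells and not of the tumour.

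**Figure D1:**
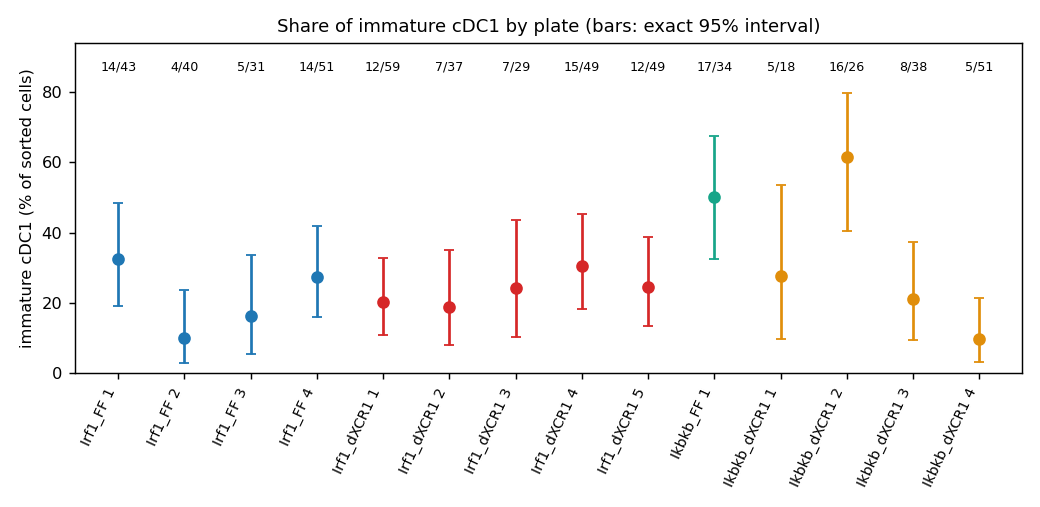
Share of sorted cells that met the immature cDC1 rule, in percent, for each of the 14 plates, coloured by genotype; bars are exact binomial 95% intervals and the numbers give members over sorted cells. The plates range from 9.80% (a mouse of 6 weeks) to 61.5% (a mouse of 8 weeks), both in Ikbkb_dXCR1, and the Irf1 groups overlap.

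The 9 genes of the rule were not equally frequent among the members. Naaa, a lysosomal amide hydrolase, had a UMI in 137 of the 141 cells, Irf8 in 136 and Ppt1, a lysosomal thioesterase, in 136. Wdfy4, a protein needed for cross-presentation, was found in 129 and Xcr1 in 103. Clec9a (81 cells), the adhesion molecule Cadm1 (80), the double-stranded RNA receptor Tlr3 (79) and Itgae, the integrin CD103 (76), were each missing from many members. Both Xcr1 and Clec9a were seen in 64 members, and neither in 21. Xcr1 lies on chromosome 9 at 123852315 to 123862029 and Clec9a on chromosome 6 at 129408862 to 129424763 (GRCm38, GENCODE vM21).

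Marker levels are given as counts per 1000000 UMIs (CPM) over the summed members of a plate, for the 13 plates with at least 5 members. Naaa ran from 1620 to 2613 CPM with a median of 2179, and from 433 to 1785 in the other cells of the same plates. Irf8 ran from 1100 to 1881 (median 1590), against 340 to 1298 in other cells. These abundant markers varied little between plates, while the surface receptors varied widely. Xcr1 ran from 95.8 to 1056 CPM (median 459), and Clec9a from 42.0 to 736 (median 167). The lowest share of members with an Xcr1 UMI was 37.5%, in Ikbkb_dXCR1 plate 3, and the highest was 100%. Tlr3 was seen in 0 to 100% of the members of a plate, and the plate at 0 was Irf1_FF plate 3. Itgae was least frequent in the Ikbkb_FF plate, at 17.6% of members. With 5 to 17 members in each of these plates, such shares are coarse.

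The edge of the rule was gradual. The 33 members with 5 markers had a median of 1345 detected genes and 108159 UMIs, and the 18 members with all 9 had 2365 genes and 219528 UMIs. The 20 cells that missed the rule only by having 4 markers had 1114 genes and 80529 UMIs. Depth therefore moved with the number of markers, and its part in where the rule cut was not tested. Of 233 cells with at least 5 markers, 35 had Ccr7 UMIs; 15 of these had 97 to 897, while 18 had 1 and 2 had 2. Of the 20 with a trace of Ccr7, 11 met the rest of the rule. The remaining exclusions were 34 cells with 4 or more cell cycle genes and 27 with 5 or more interferon genes, of which 4 met both. Among the members, 86 had no UMI of the 10 cell cycle genes, but only 45 had none of the 8 interferon genes, and 60 had Isg15. Resting in this sense did not mean free of interferon-induced transcripts.

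The members were checked against markers of other cell types. Of the macrophage and monocyte genes, Cd163, Arg1, Trem2 and Mertk had no UMI in any of the 141 members. If all members were independent draws, this would allow a share of up to 2.13% of members with a UMI. Members of a plate share 1 mouse, so the true limit can be higher. C1qa was seen in 6 members, Csf1r in 3 and Adgre1 in 1, whereas Cd68 was seen in 96, Lyz2 in 83 and Ccr2 in 42. The summed macrophage list reached 1256 to 3174 CPM per plate in members (median 2102) and 1226 to 8543 in other cells (median 1792). The list thus did not separate the classes, and its frequent genes are also expressed by dendritic cells. Lyz2 was higher in members in 11 of 13 plates (845 against 494 CPM) and Cd68 in 9 (607 against 456 CPM). By the median over plates, 3 of 14 list genes with 50 CPM lay higher in members and 11 lower. Of the 15 cDC2 genes Cd209a, Itgam, Cx3cr1 and Irf4 were at 0, and the list summed to 0 to 760 CPM in members and 260 to 1480 in other cells, lower in members in 13 of 13 plates. Fibroblast and endothelial genes summed to 0 to 392 CPM (median 103), against a median of 1599 in other cells. Plasmacytoid genes summed to 290 to 698 CPM in members and 274 to 1225 in other cells, and Siglech was at 0. T cell genes summed to 0 to 264 CPM with 6 of 14 at 0; 5 of 9 NK genes, 3 of 7 B cell genes, 5 of 6 neutrophil genes and 4 of 5 melanoma genes were also at 0. From the lymphocyte lists, the activating receptor gene Klrk1 was seen in 111 members and the immunoglobulin gene Ighm in 57. NK genes summed to a median of 725 CPM in members and 580 in other cells, lower in members in only 2 of 13 plates. B cell genes summed to medians of 195 and 161 CPM, lower in members in 6 of 13 plates. The cDC1 markers themselves cannot check the label, because they chose the members.

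The most abundant transcripts of the members encode antigen-presenting molecules. Cst3, an inhibitor of lysosomal proteases typical of dendritic cells, stood at 4900 ± 957 CPM (SD, n = 13 plates), Cd74, the MHC class II invariant chain, at 4835 ± 972, and the class II chains H2-Ab1, H2-Aa and H2-Eb1 at 4783 ± 854, 4368 ± 841 and 4121 ± 689. B2m, the light chain of MHC class I, reached 3300 ± 437 CPM. These genes approach the limit of the assay, because 5-base UMIs allow 1024 different ones per gene and cell: the median member had 952 of them for H2-Ab1, 945 for Cd74 and 948 for Cst3. The median other cell had 528.5 for H2-Ab1. Ratios of such genes are therefore distorted, and values corrected for UMIs that coincide, an alternative chosen after seeing the data, are given beside them below.

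Within plates, each gene was compared as the log2 ratio of CPM with 10 CPM added to both classes, over 4408 genes with a mean of 50 CPM in either class. Against the 5 or more other cells of the same plate, 25 genes were higher in immature cDC1 in every one of 13 plates (0.567% of the genes) and 59 were lower in every plate (1.34%). The rule itself used this contrast, so nothing is read from these counts. With UMI collisions corrected, 26 and 62 of 4050 genes were so placed. In the 7 plates with 10 or more cells of each class, 228 were higher and 184 lower, and the genes named below as highest and lowest kept their direction in every plate there. With CPM averaged per cell instead of summed, 6 of the 12 highest and all 12 lowest genes did.

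Among the genes highest in immature cDC1 beyond the rule, Rab7b, a small GTPase of late endosomes on chromosome 1 at 131688695 to 131715439, ran from 1070 to 1755 CPM in members (median 1324) and from 218 to 870 in other cells (median 516). The ranges did not overlap, and the median log2 ratio was 1.57. It was detected in 92.9% of members and 35.0% of other cells, and in 94.1% and 37.3% when cells were thinned to 40000 UMIs, which kept 135 members and 346 other cells. Gm2a, the lysosomal activator of ganglioside breakdown that also loads lipids on CD1 molecules, was at 2276 ± 424 CPM against 1081 ± 353 (log2 ratio 1.12). Alox5ap, which hands arachidonic acid to 5-lipoxygenase, was at 1868 ± 285 against a mean of 908 CPM (log2 ratio 1.13).

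Sept3, a septin gene, had the largest median ratio of all 25, at 2.10. Its levels were 189 to 695 CPM in members (median 351) and 0 to 460 in other cells (median 88.9), so the ranges overlapped although each plate pointed the same way. Rtl8c, a retrotransposon-derived gene, followed at 2.00 (447 ± 151 against a mean of 120 CPM), then Unc119, a carrier of lipid-modified signalling proteins, at 1.80 and Sdad1, a ribosome biogenesis gene, at 1.60. The brain-type creatine kinase Ckb had 881 ± 275 CPM against a mean of 323, and the nucleotide receptor P2ry6 had 251 against 110 (1.47). Cyth4, an exchange factor for Arf GTPases, had 566 ± 96.8 against 230 (1.28), and Vps9d1 had 139 against 26.7 (1.21). Counts of UMIs were higher in members in 9 of 14 plates (median of the plate medians 172632 against 136375), and so were genes per cell, in 9 of 14 plates. CPM scaling removes total depth but not its effect on the detection of rare genes, and the part of depth in these ratios was not tested.

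The genes lowest in immature cDC1 included members of the maturation list and of the chemokine and cytokine list. Cd63, a tetraspanin of late endosomes on chromosome 10 at 128900989 to 128912822, had 0 to 14.0 CPM in members and 280 to 2236 in other cells, without overlap (log2 ratio -6.86). It was seen in 14 members, and in 1 of them with 10 or more UMIs. The chemokine Ccl22, which attracts regulatory T cells through CCR4, had 0 to 60.0 against 171 to 1329 CPM (-6.01). Ccl5 had 0 to 15.2 against 99.1 to 1813 CPM (-5.90), and Il12b, the p40 subunit of IL-12 and IL-23, had 0 to 13.9 against 42.7 to 1191 (-5.52). None of these ranges overlapped. Samsn1 (log2 ratio -5.52), the calcium channel subunit Cacnb3 (-5.35), Nudt17 (-5.13), the OX40 gene Tnfrsf4 (-5.13), Glipr2 (-5.00), the miR-155 host gene Mir155hg (-4.88) and the stress gene Gadd45b (-4.76) followed. Anxa3 had no UMI in any member, against 221 ± 99.4 CPM in other cells. Members were required to lack Ccr7, and 94 of the 414 other cells carried both Ccr7 and Fscn1. The part of these mature cells in the contrast was not tested.

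**Figure D2:**
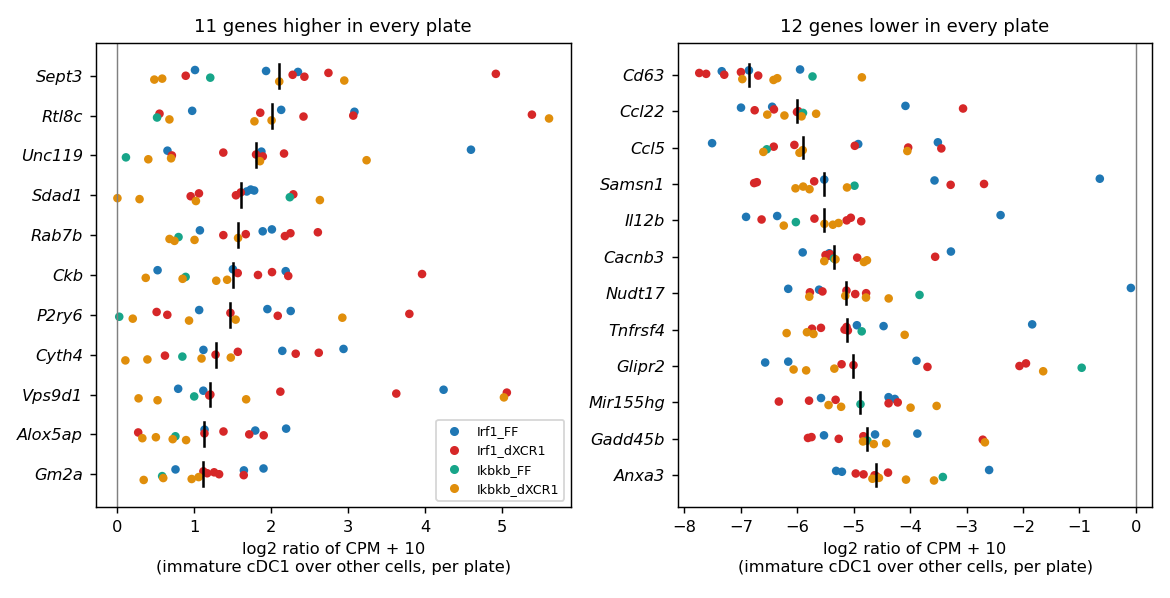
Log2 ratio of CPM plus 10, immature cDC1 over other cells, for 11 of the 12 genes outside the rule that were highest and the 12 that were lowest; each point is 1 of 13 plates and the bar is the median. Medians run from 2.10 (Sept3) to -6.86 (Cd63), and every point of a gene lies on the same side of 0.

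Gene lists were described by how many of their genes with 50 CPM lay on each side, beside all 4408 genes, of which 2090 had a median above 0 and 2098 below, with a median of 0.00. Of 15 further cDC1 surface and uptake genes 12 lay above 0 and 5 were higher in every plate, with a median of 1.02. Btla, an inhibitory receptor, had 562 ± 104 against 244 ± 137 CPM, and Cd52 had 1824 ± 357 against a mean of 1259. Among 11 transcription factors of dendritic cell development none was higher or lower in every plate (median 0.26). Batf3 had 541 ± 141 against 307 ± 135 CPM and was higher in 11 of 13 plates, and Id2 had 2283 ± 427 against 1765 ± 486 and was higher in 10.

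Class II presentation genes lay mostly above 0, while class I genes were split much like all genes. Of 13 class II genes 12 lay above 0 (median 0.71), and 1 was higher in every plate: H2-DMa, a chain of the peptide loader of class II, at 1580 to 2477 CPM in members (median 1926) against 532 to 1836 (median 1002). With UMI collisions corrected, the median was 0.76, and H2-Ab1 moved from 0.36, higher in 11 of 13 plates, to 0.63, higher in all 13. H2-Eb1 moved likewise from 0.36 to 0.59. Of 21 class I genes 8 lay above 0 and 13 below (median -0.12), and H2-Q7 was lower in every plate (138 ± 83.1 against 400 ± 129 CPM). B2m had a log2 ratio of -0.33, and of -0.56 when corrected, then lower in 13 of 13 plates. Genes of cross-presentation lay above 0 in 13 of 17 cases with none higher in every plate (median 0.36), and lysosomal proteases and inhibitors lay below 0 in 12 of 18 (median -0.30), with Psap, the saposin precursor, as the 1 higher in every plate (1125 ± 311 against 604 ± 212 CPM).

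All 37 maturation genes had a median below 0 and 20 were lower in every plate (median -3.42). Of 18 chemokines and cytokines 16 lay below 0 (median -2.26), and of 27 NF-kB pathway genes 23 did (median -1.19), with the feedback inhibitor Nfkbia lower in every plate (575 ± 215 against 1211 ± 355 CPM). Of 37 interferon-gamma-induced genes 29 lay below 0 (median -1.13), and 4 were lower in every plate, among them the guanylate binding protein Gbp2 (25.2 against 284 CPM) and Cd274, which encodes PD-L1 (39.0 against 260 CPM). Type I interferon genes lay below 0 in 31 of 38 cases (median -0.69), which includes the direct effect of the rule. Of 14 costimulatory and checkpoint genes Btla was higher and Cd274 and Cd40 (93.3 against 509 CPM) were lower in every plate. Respiratory chain genes (20 of 25 above 0, median 0.19) and ribosomal protein genes (18 of 20, median 0.26) lay slightly above 0, and glycolysis genes near it (median -0.20). Btg2, an antiproliferative gene from the quiescence list, had 743 against 441 CPM and was higher in 11 of 13 plates.

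**Figure D3:**
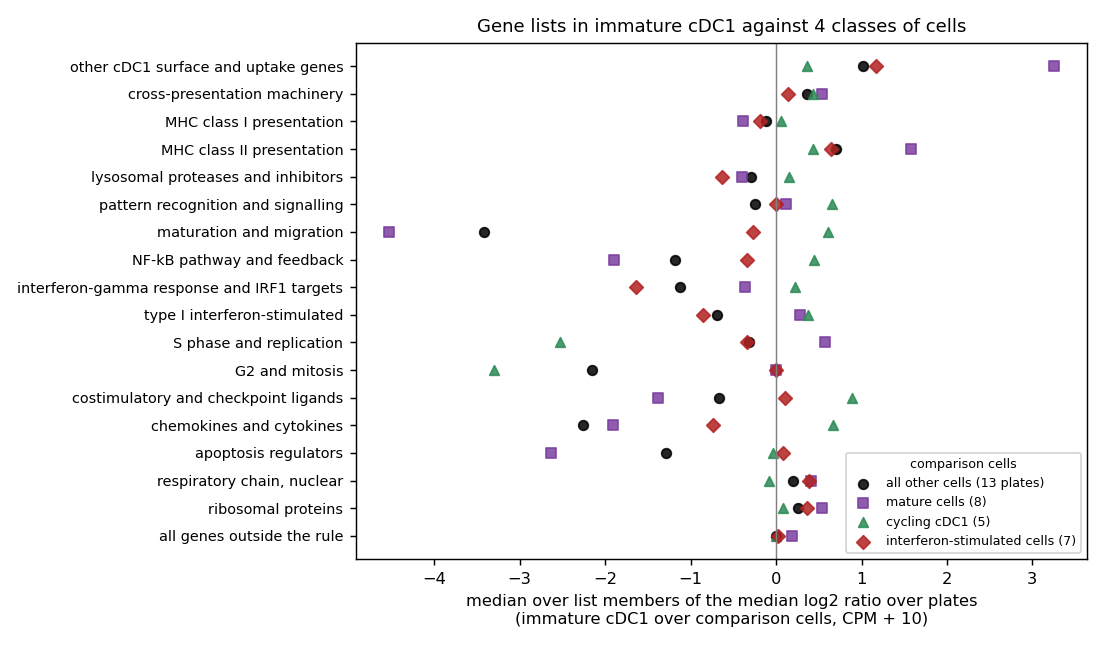
Median log2 ratio of CPM plus 10 for 18 sets of genes, the last of them all genes outside the rule. Ratios are immature cDC1 over other cells (13 plates), mature cells (8 plates), cycling cDC1 (5 plates) and interferon-stimulated cells (7 plates). Maturation genes are lowest against mature cells at -4.53, and class II presentation genes lie above 0 in each of these contrasts.

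Mature cells were defined by UMIs of both Ccr7 and Fscn1, and carried a mean of 14.1% of the rule markers, against 75.4% in members. In the 8 plates with at least 5 of each class, 313 of 4416 genes were higher in immature cDC1 in every plate (7.09%) and 294 were lower (6.66%), while the median over all genes was 0.18, to which the values here should be set. Rab7b had 1486 ± 224 CPM in immature and 35.1 ± 57.2 in mature cells (log2 ratio 6.96). Ckb (6.29; 931 against 15.8 CPM), the complement factor properdin Cfp (5.92; 718 against 18.1), Cyth4 (5.85), the receptor Gpr171 (5.78) and Mctp1 (5.54) followed. At the other end, Cd63 had 0.713 CPM in immature and 2884 ± 651 in mature cells (-8.08), followed by Ccl22 (-7.82), Il12b (-7.36), Samsn1 (-7.10), Nudt17 (-7.01) and Ccl5 (-6.92). Mature cells had fewer UMIs and genes (medians 136258 and 1399, against 163068 and 1902 in immature cDC1), and the part of this depth gap was not tested.

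Among class II genes, the regulators and the peptide loader separated the states more than the chains H2-Ab1 and H2-Aa did. Of 13 class II genes 8 were higher in immature cDC1 in every plate and 1 was lower (median 1.58). Ciita, the master regulator of class II transcription, had 410 ± 166 CPM against 34.6, and March1, the ligase that sends class II molecules to degradation, had 384 against 8.35. H2-DMa had 1953 ± 279 against 203 ± 212 CPM, and H2-DMb1 had 2030 ± 219 against 139 ± 90.5. The class II chains differed less: H2-Ab1 had a log2 ratio of 1.01 and H2-Aa of 0.11, and 1.53 and 0.53 with collisions corrected. Class I presentation pointed the other way, with 5 of 21 genes lower in every plate, among them the heavy chain H2-K1 (1293 against 2866 CPM) and the proteasome activator Psme2 (1432 ± 202 against 3640 ± 728), and 1 higher, Pdia3 (log2 ratio 1.47).

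Of 40 maturation genes 33 were lower in immature than in mature cells in every plate (median -4.53), a contrast that the rule on Ccr7 made. Of 27 NF-kB genes 17 were lower and 1 was higher (median -1.90). Tank had a log2 ratio of -6.03, Tnip3 of -5.18 and Birc2 of -4.32, and the NF-kB subunit Relb had 41.3 against 391 CPM. Irf1 had 150 ± 188 CPM in immature and 665 ± 237 in mature cells (log2 ratio -2.93). It was seen in 21 of the 141 immature and 59 of the 94 mature cells. Of 15 costimulatory genes 5 were lower, such as Cd274 (-4.81), Pdcd1lg2 (-4.35) and Cd80 (-3.88), and 3 were higher. Pattern recognition genes were split: Havcr2, which encodes TIM-3, had 486 against 16.1 CPM, the Toll-like receptor chaperone Unc93b1 a log2 ratio of 2.34, and Clec7a one of -3.88. The Toll-like receptor gene Tlr11, which detects profilin and is typical of mouse cDC1, had 188 ± 74.8 against 0.123 CPM. The immediate-early genes Fos (847 against 77.1 CPM) and Fosb and the heat-shock gene Hspa1a were higher as well; whether dissociation of the tissue moved them was not tested. Of 20 ribosomal protein genes 8 were higher and none was lower (median 0.53), and of 25 respiratory chain genes 6 were higher and none was lower (median 0.41).

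Cycling cDC1 were the cells with 5 or more of the same markers that failed the limit on cell cycle genes. In 5 plates with at least 3 of them, 255 of 4436 genes were higher in immature cDC1 in every plate (5.75%) and 273 were lower (6.15%). Of 28 S phase genes 21 were lower and of 21 G2 and mitosis genes 14 were, with medians of -2.53 and -3.30, as the rule sets. Asf1b, a histone chaperone, had 21.5 against 676 CPM, the ribonucleotide reductase subunit Rrm1 17.5 against 371 and thymidine kinase Tk1 0.712 against 316. The chemokine receptor Cxcr3 had the highest ratio in immature cells, 4.20 (345 against 85.8 CPM). Its plate ratios ran from 0.04 to 5.64, and it was detected in 31.9% of immature and 38.2% of cycling cells. The ratio thus does not mean that fewer cycling cells carried the transcript. Class II genes were higher in every plate for 7 of 13 (median 0.43), but cycling cells were deeper, with a median of 260666 UMIs, and collision correction took H2-Ab1 from 0.65 to 0.43.

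Interferon-stimulated cells were those with 5 or more of the 8 interferon genes and no Ccr7, whatever their cDC1 markers. Against them, in 7 plates, 186 of 4635 genes were higher in immature cDC1 in every plate (4.01%) and 96 were lower (2.07%). Of 40 type I interferon genes 17 were lower (median -0.85), which the rule made in part, and of 38 interferon-gamma genes 13 were lower and 2 higher (median -1.64). Rtp4, a type I interferon target, had 22.3 against 906 CPM and Cd63 had 2.82 against 960. Irf1 had 97.9 against 231 CPM (log2 ratio -1.58). All 13 class II genes and all 20 ribosomal protein genes had a median above 0, at 0.65 and 0.36. Of all 4635 genes, 2362 had a median above 0 and 1970 below, with a median of 0.02. The interferon-stimulated cells carried a median of 3 rule markers, against 7 in members, and 11 of 12 fibroblast and endothelial genes lay below 0 in members (median -2.34), such as Sparc at 8.25 against 1093 CPM and Col1a1 at 14.7 against 1123. The part of these cells in the ratios was not tested. Id2 and Batf3 had log2 ratios of 1.01 and 0.63 and Tcf4, a factor of plasmacytoid dendritic cells, one of -3.66.

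The protein stainings recorded at the sort were not used by the rule and could be tested. They cover 113 of the 141 members, in 12 plates with at least 3 stained members and 3 other cells, and none from Ikbkb_FF plate 1 or Ikbkb_dXCR1 plate 4. Values are plate medians after an arcsinh transform without a cofactor, which spreads values near 0 widely, compared by a two-sided exact permutation test that flips the sign of each plate's difference, adjusted over 11 channels by Benjamini-Hochberg. The channel named LIN, usually a cocktail against other lineages, averaged 4.04 ± 1.55 in members and 5.40 ± 0.477 in other cells and was lower in 11 of 12 plates (mean difference -1.36, exact p = 0.00195, adjusted 0.0215). The channel named LIVE, usually a dye that dead cells take up, averaged 7.33 ± 0.349 in other cells and was lower in members in 10 of 12 plates (mean difference -0.33, SD 0.414, exact p = 0.00781, adjusted 0.0430). The LIVE call was lost with 6 markers (adjusted exact p = 0.0501), with 5 stained cells per plate (0.0859) and when any of 8 plates was left out. LIN lost its call with plate means in place of medians (adjusted exact p = 0.284).

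XCR1 protein, the surface product of a rule gene, was higher in members in 10 of 12 plates, at 8.79 ± 0.687 against 7.99 ± 0.816. The difference of 0.80 missed the adjusted threshold (exact p = 0.0186, adjusted 0.0680) and passed it without Irf1_FF plate 4 (adjusted exact p = 0.0215), where members were lower. Members with an Xcr1 UMI had a median of 8.93 (n = 80 cells) and members without one 8.12 (n = 33), while other cells without Xcr1 UMIs had 7.56 (n = 293). Within plates, members with the transcript had the higher median in 5 of 7 plates. At 10 or more Xcr1 UMIs the median was 8.76 in members (n = 69) and 8.81 in other cells (n = 46), pooled over plates as above. Side scatter was lower in 9 of 12 plates (-0.21, adjusted exact p = 0.0779) and passed without Irf1_dXCR1 plate 4 (0.0251). CD11b was lower in 10 plates (-2.57, adjusted exact p = 0.166) and passed without Ikbkb_dXCR1 plate 2 (0.0215), and CD64 was lower in 9 (-1.30, adjusted exact p = 0.115). For XCR1 and side scatter, the plate left out pointed against the mean difference. Such runs were chosen after seeing the data, so nothing is read from the passes of XCR1, side scatter and CD11b. CD11c, CD45, MHCII, forward scatter and the channel named B_TIL differed by less than the spread between plates allows to call, with adjusted exact p of 0.115, 0.687, 0.347, 0.166 and 0.366.

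Against mature cells, 9 plates gave values. CD11b was lower in immature cDC1 in 8 of 9 plates (mean difference -3.68, exact p = 0.00781, adjusted 0.0430) and LIVE in 9 of 9 (-0.27, exact p = 0.00391, the smallest possible, adjusted 0.0430). Both calls were fragile: they were lost with plate means (adjusted exact p of 0.158 and 0.0859), and LIVE kept its call without Irf1_FF plate 4 or Ikbkb_dXCR1 plate 3 (0.0430), and CD11b without the latter (0.0430), but neither kept it without any of the other 7 plates (0.0859). CD11b medians of members were below 0 in Irf1_dXCR1 plates 1 and 5 and Irf1_FF plate 2, and with a cofactor of 150 the mean difference was -0.88. MHCII protein was lower in 8 of 9 plates, at 8.84 ± 0.884 against 9.93 ± 0.747, which missed the adjusted threshold (-1.09, exact p = 0.0273, adjusted 0.100). Irf1_FF plate 4 was the exception, and without it the difference was -1.38 and passed (adjusted exact p = 0.0430). Since that run left out the only plate pointing the other way, nothing is read from its call. Between the same classes the transcripts of H2-Ab1, Ciita and H2-DMa were higher in immature cells. H2-Aa had a log2 ratio of 0.11, and of 0.53 with collisions corrected. Whether MHCII protein and class II RNA differ in direction was not tested. XCR1 was higher in 7 of 9 plates (0.78, adjusted exact p = 0.247).

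**Figure D4:**
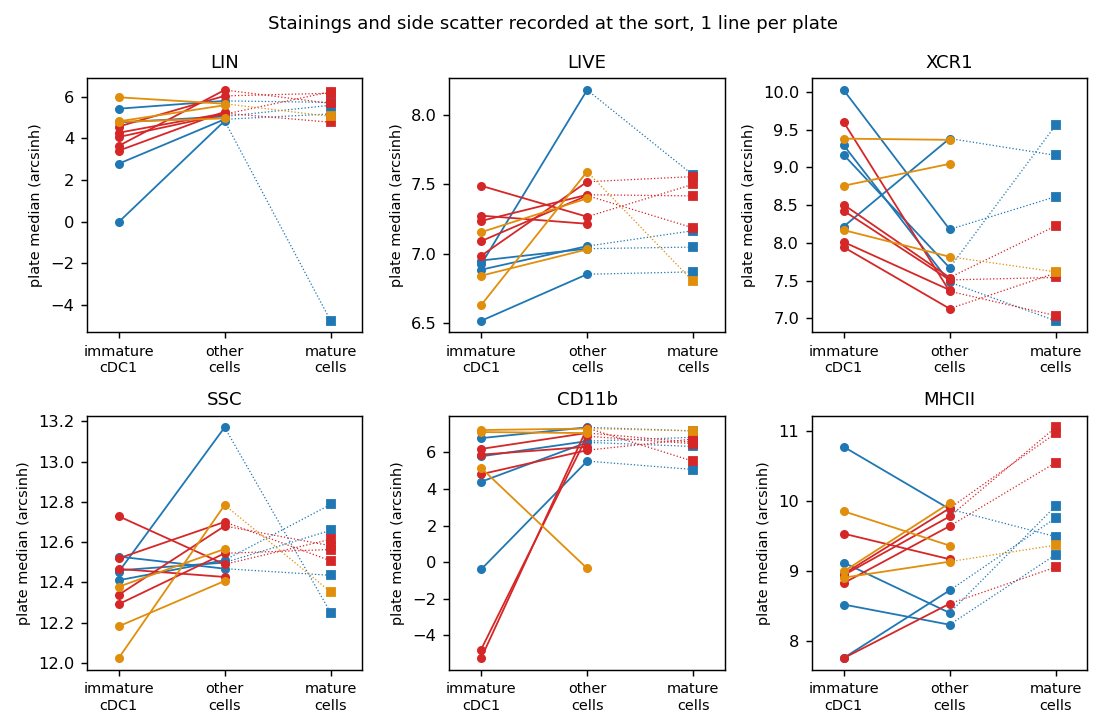
Plate medians of 6 sort channels on the arcsinh scale in immature cDC1, other cells and mature cells; lines join the classes of a plate, dotted ones to mature cells. LIN is lower in immature cDC1 than in other cells in 11 of 12 plates and MHCII is lower than in mature cells in 8 of 9.

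Between genotypes, members were compared after summing their UMIs per plate, in a fit of the 13 plates with at least 5 members, which leaves 3 Irf1_FF plates. In the knockout check, Irf1 on chromosome 11 at 53770014 to 53778374 had 146, 412 and 323 CPM in Irf1_FF and 219, 0, 94.1, 7.44 and 1.67 CPM in Irf1_dXCR1. The groups overlapped in 1 Irf1_dXCR1 plate, and the difference (log2 -2.19, SE 1.92) did not pass edgeR's quasi-likelihood test (adjusted p = 0.975). Irf1 UMIs were present in 11 of 37 Irf1_FF members and 7 of 53 Irf1_dXCR1 members, and in 1 of 17 Ikbkb_FF and 2 of 34 Ikbkb_dXCR1 members. Ikbkb on chromosome 8 at 22659212 to 22706589 had 276 CPM in Ikbkb_FF and 268, 259, 184 and 105 in Ikbkb_dXCR1 (log2 -0.43, SE 1.35). Its UMIs were seen in 5 of 17 and 12 of 34 members. UMIs mark the 5′ end of a transcript and the sources used here do not name the deleted exons, so neither level checks the labels.

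No gene passed in either comparison. For Irf1_dXCR1 against Irf1_FF, 0 of 11129 genes were called (0%) by edgeR after Benjamini-Hochberg adjustment, the smallest adjusted p was 0.613, and 822 genes had an unadjusted p under 0.05. DESeq2 called 138, of which 124 were found in under 10% of members, and limma-trend called 0. For Ikbkb_dXCR1 against the 1 Ikbkb_FF plate edgeR also called 0 (0%), with 460 genes under 0.05 unadjusted, while DESeq2 called 586 and limma-trend 165, of which 402 and 164 were found in under 10% of members. For that lone control plate, the spread was borrowed from the other plates. The difference between both genotype effects called 0 genes by edgeR, with 336 unadjusted.

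The values of smallest p are given without a call. Fgl2, a fibrinogen-like immunoregulatory protein, had 1172, 1152 and 2049 CPM in Irf1_FF and 548, 693, 707, 706 and 392 in Irf1_dXCR1. These groups did not overlap (edgeR log2 -1.26, SE 0.38, adjusted p = 0.613). Ifitm2, an interferon-induced transmembrane protein, had 320, 361 and 123 CPM in Irf1_FF and 938, 707, 599, 1098 and 863 in Irf1_dXCR1, also without overlap (edgeR log2 1.65, SE 0.51, adjusted p = 0.613). Both genes were found in most members, 80.1% and 87.9%. Of all 11129 genes tested, 105 lay wholly above and 150 wholly below the controls in Irf1_dXCR1. Nothing is therefore read from the lack of overlap of single genes. The semaphorin and VEGF receptor gene Nrp1 had 128, 123 and 85.4 CPM against 0, 0, 0, 0.827 and 0, and Relt had 165, 178 and 29.8 against 0 in all 5 plates. Rnaseh1 and Caml were at 0 in the controls, with Caml at 92.9 to 122 CPM in Irf1_dXCR1. In the Ikbkb comparison Psmd13, a proteasome subunit, had 0.417 CPM in the control and 71.0, 331, 335 and 457 in Ikbkb_dXCR1, and the mitochondrial ribosomal gene Mrpl15 had 0 against 250, 263, 192 and 456. Polr1e, Tdrd7 and Reep4 were at 0 in Ikbkb_dXCR1. Of all 11129 genes tested, 429 lay wholly above and 2368 wholly below the 1 control plate in Ikbkb_dXCR1. Nothing is therefore read from the order of single genes in this comparison.

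Among the rule markers, Xcr1 lay lower in both deleted groups without passing. It had 1046, 346 and 1010 CPM in Irf1_FF against 366, 178, 150, 544 and 297 in Irf1_dXCR1 (edgeR log2 -1.38, SE 0.57, adjusted p = 0.613), and 1149 in Ikbkb_FF against 484, 511, 92.0 and 641 in Ikbkb_dXCR1 (log2 -1.41, SE 0.82, edgeR adjusted p = 1). All Ikbkb_dXCR1 plates lay below the 1 Ikbkb_FF plate for 2368 of all 11129 genes, so nothing is read from that order for Xcr1. Members are chosen in part by Xcr1 and the deleting allele is not named, so its part in these levels was not tested. XCR1 protein differed by -0.68 between the Irf1 groups (exact permutation test, adjusted p = 0.349). Clec9a had 255, 555 and 151 CPM in Irf1_FF and 137, 96.3, 79.1, 48.4 and 186 in Irf1_dXCR1, with overlap (edgeR log2 -1.55, SE 0.80, adjusted p = 0.613).

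**Figure D5:**
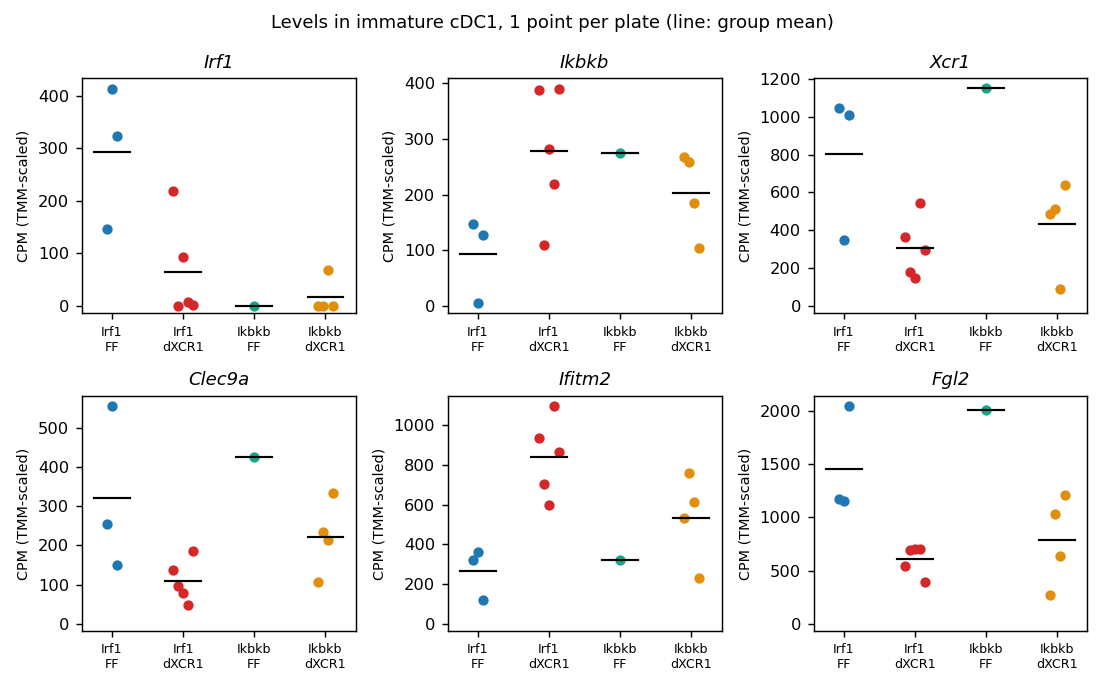
CPM after TMM scaling of Irf1, Ikbkb, Xcr1, Clec9a, Ifitm2 and Fgl2 in summed immature cDC1, 1 point per plate and a line at each group's mean, for Irf1_FF (3 plates), Irf1_dXCR1 (5), Ikbkb_FF (1) and Ikbkb_dXCR1 (4). Ifitm2 and Fgl2 do not overlap between the Irf1 groups, Xcr1 and Clec9a do, and no gene passed the test. Of all 11129 genes tested, 105 lay wholly above and 150 wholly below the controls in Irf1_dXCR1.

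Between genotypes 0 genes of each list passed edgeR's test. Over all 11129 genes, 5689 had a log2 difference above 0 and 4939 below in the Irf1 comparison (median 0.04). Of 23 class I presentation genes 22 lay below 0 (median -0.39), for example B2m at 3619 ± 1309 CPM in Irf1_FF and 3423 ± 898 in Irf1_dXCR1, and of 40 interferon-gamma genes 30 did (median -0.37). Type I interferon genes lay above 0 in 29 of 47 cases (median 0.31), such as Ifitm3 at 1078 ± 398 against 1833 ± 729 CPM. NF-kB genes lay below 0 in 20 of 30 (median -0.59; Nfkbia at 850 against 509 CPM) and cholesterol genes above 0 in 16 of 21 (median 1.02). In the Ikbkb comparison 5089 of all 11129 genes lay above 0 and 4350 below, with a median of 0.00. NF-kB genes had a median of -0.07 there, and class II genes lay below 0 in 10 of 13 (median -0.29). Such lists share plates and genes that move together, so their medians carry no test.

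Between the Irf1 groups 0 of 11 stainings of members passed adjustment by the exact permutation test, and 5 had an unadjusted p under 0.05. B_TIL was 6.88 to 7.36 in the 5 Irf1_dXCR1 plates and 6.04 to 6.25 in the 4 Irf1_FF plates, without overlap (difference 0.89, exact p = 0.00794, the smallest possible, adjusted 0.0582). CD11c was 10.1 ± 0.446 against 9.20 ± 0.261 (exact p = 0.0159, adjusted 0.0582) and LIVE 7.21 ± 0.192 against 6.82 ± 0.203 (exact p = 0.0159, adjusted 0.0582). CD64, at 5.98 ± 0.669 against 0.540 ± 5.15, overlapped (exact p = 0.0238, adjusted 0.0655), and CD45 was 10.6 ± 0.258 against 10.2 ± 0.125 (exact p = 0.0476, adjusted 0.105). In other cells of the same plates CD11c also gave an exact p of 0.00794 (adjusted 0.0873), so the CD11c difference was not confined to the members. UMIs per cell (exact p = 0.5), genes per cell (exact p = 0.911) and mitochondrial share (exact p = 0.214) of members did not pass either.

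Promoters from 250 bases before to 50 after the start, from RefSeq (GRCm38.p6), were searched on both strands for GAAA, 2 bases of any kind and GAAA, the core of the interferon-stimulated response element. It was present in 1131 of 32851 promoters (3.44%), in 0 of 8 promoters of 7 rule markers, in 0 of 8 of 6 genes named as highest and in 0 of 11 of 10 genes named as lowest against other cells. No match says only that these letters are not in this window.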

How the data were processed

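FACS put 1 cell into each well of 96-well plates, where the template-switching oligonucleotide gave a transcript's 5′ end its well barcode and UMI, per the labels' protocols. The authors deposited UMI counts of 21205 genes in 555 cells; the tools were STAR 2.5.3a, HTSeq 0.9.1 and bcl2fastq on GRCm38, per the submitters' processing notes, and filters before deposit were not given in the sources used here. The deposited cell table gives plate, genotype, mitochondrial and spike-in fractions and, for 458 cells, staining intensities. No cell was removed and no doublet caller was run, since wells were sorted singly; 0 cell names occur more than once. Plates held 2810321 to 10120557 UMIs, and members of a plate 782553 to 2852975 where they numbered 5 or more. Of the non-zero counts 17.0% were 1 to 3, and the median non-zero count was 64. When a gene counted as present only from 10 UMIs, 136 cells met the rule, 125 of them members.

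The members and all gene lists were chosen with earlier results of these data known. Member counts were summed per plate, kept by filterByExpr, scaled by TMM and tested with edgeR 4.0.16 (quasi-likelihood, two-sided, Benjamini-Hochberg, threshold 0.05) in R 4.3.3, all 4 groups in 1 fit. DESeq2 1.42.0, limma 3.58.1 (trend), other cell minimums, marker numbers and leaving out each plate were alternatives. Within plates, CPM are counts per 1000000 UMIs of the summed class, 10 CPM were added, and plates needed 5 cells of both classes (3 for cycling and interferon-stimulated cells). Named genes are the rule markers, Irf1 and Ikbkb, the 3 of smallest p per direction and genotype, the 12 highest and 12 lowest against other cells and 6 and 6 against mature cells with 1 direction in every plate, and up to 4 such genes or the 2 most abundant per list; others were chosen after their values were seen, and a few genes are not reported here. Replicate numbers follow accession order. Scripts were tested on simulated data and used python 3.11.15, numpy 2.4.6, pandas 2.3.3, scipy 1.17.1 and matplotlib 3.10.9.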

Additional observations from a re-analysis of the deposited data

Results flagged for a closer look

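In groups of 4 to 9 plates, a plate whose value lay far from all others relative to the group's range was noted; 58 groups were examined, 5 plates stood apart, and chance gives about 1 in 20 groups, or 2.9 here. Irf1_FF plate 4 stood apart in the immature minus mature difference of LIN, at 4.74 against -2.39 to 0.919 in the other plates, and of MHCII, at 1.28 against -2.10 to -0.463. It was the 1 plate in which immature cDC1 stained more strongly for MHCII than mature cells. The LIVE median of members in Irf1_FF plate 2 was 6.52, against 6.88 to 6.95 in the other Irf1_FF plates, and rests on 4 members. Forward scatter of immature minus mature cells was -0.30 in Irf1_dXCR1 plate 5, against -0.0782 to 0.131 in the others. Nrp1 was at 0.827 CPM in members of Irf1_dXCR1 plate 4 and at 0 in the other 4 Irf1_dXCR1 plates.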

How the results depend on the processing

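No paired analysis was possible because replicate numbers only follow accession order and pair no plates. Of 101 alternative values of the main results 67 kept direction and call, 1 reversed and 33 moved, and of 710 values of single genes and channels 630 kept both, 7 reversed and the rest moved or crossed the threshold. Genes called for Irf1 were 138 with DESeq2 and 0 to 1 when a plate was left out (Pla2g16, without Irf1_dXCR1 plate 1). Genes called for Ikbkb were 586 with DESeq2, 165 with limma-trend, 9 with at least 10 members per plate, 3 with 6 markers, 1 with presence from 10 UMIs and 0 to 0 when a plate was left out. The share difference ran from -1.68 to 5.84 percentage points when a plate was left out. Stainings called against other cells were 2, and 1 with 5 stained cells per plate, 5 with 4 markers, 1 with 6 markers, 1 with presence from 10 UMIs, 3 with a cofactor of 150 and 1 to 3 when a plate was left out. Stainings called against mature cells were 2, and 0 with means, 0 with 5 stained cells per plate, 1 with 4 markers, 0 with 6 markers, 0 with presence from 10 UMIs and 0 to 2 when a plate was left out, where 8 plates allow no exact p under 0.00781. The 7 plates with 5 stained cells of each class against mature cells allow no exact p under 0.0156. Between the Irf1 groups 0 stainings were called when any plate was left out. The smallest possible exact p there was 0.0179 or 0.0286, so a call needed several channels at that limit. Nothing is read from the lack of calls in these runs. Alternatives with presence from 10 UMIs, the cofactor, the collision correction, and plates left out for stainings were chosen after seeing the data. Genes in 1 direction in every plate became 228 higher and 184 lower with at least 10 cells. Reversed single values were the Ikbkb difference (1.47 with 6 markers, 0.58 with all control plates, 1.23 with presence from 10 UMIs), CD45 (-0.0449 with 4 markers, and -0.0103 to 0.103 when a plate was left out, with -0.00174 without Irf1_dXCR1 plate 2). The run with all control plates joined Irf1_FF plates of experiment M3 and 6 weeks to the Ikbkb_FF plate of M2 and 8 weeks. Its value thus cannot be told apart from those differences. CD64 also had another sign in the separate contrast against mature cells (0.36) than against other cells (-1.30). The cause of these changes was not tested. LIVE lost its call in 8 of the runs with a plate left out (adjusted exact p 0.0537 to 0.0859).

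The genotype fit rests on 5 to 17 members per plate: an Irf1 difference of 2.19 on the log2 scale had a standard error of 1.92.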
